A study of Rattus norvegicus with 2 samples.

Results

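The 40 genes described here carry and answer interferon signals: receptor subunits, their kinases, STAT and IRF transcription factors, sensors of foreign nucleic acid, and genes that interferons induce. They were chosen by gene symbol, with earlier results of these data known, from a list of interferon pathway genes without the Oas family. Of the 40 symbols, 39 had a row among the 17049 genes of the authors' deposited table. Xaf1 was not analysed here. The cells were primary oligodendrocyte precursor cells (OPCs), the dividing glia that give rise to myelinating oligodendrocytes, from the brain of wild-type adult rats. One culture received amyloid-β (Aβ), which forms the plaques of Alzheimer's disease, at 1 µM for 2 days, and its control is labelled DMSO, a solvent. No label used here gives the number of animals behind a culture. The protocol text names Aβ for both samples, so the control is known from its treatment label alone. Both cultures grew in a medium named OGM, at 37 °C with 5% CO2.

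There was 1 library per group, so no difference has a replicate check, and neither p-values nor standard errors are given. The Aβ library held 15704932 estimated reads and the control library 15663751. Ratios are reads per library total, Aβ over control, with exact Clopper-Pearson 95% intervals, which cover counting error only and compare these 2 libraries, not the conditions. A gene is called lower or higher where its interval lies wholly below or above 1. Genes with 20 or more reads in both libraries together count as measured, which held for 36 members and 13593 of all genes. Levels are in TPM, which corrects for gene length and library total.

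Interferons are secreted proteins that warn cells of infection. Type I interferons bind the receptor made of IFNAR1 and IFNAR2, and interferon-gamma binds that made of IFNGR1 and IFNGR2. The kinases JAK1 and TYK2, or JAK1 and JAK2, then phosphorylate STAT proteins. STAT2 and IRF9 act in a complex that binds the interferon-stimulated response element (ISRE), and the interferon-gamma signal acts through the gamma-activated sequence (GAS), in the promoters of induced genes. Glial cells, oligodendrocyte lineage cells among them, carry these receptors.

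More interferon pathway genes were called lower than higher in the Aβ library, and for most the interval included 1. Of the 36 measured members, 9 (25%) were called lower, against 12.1% of all genes measured, and 5 (13.9%) were called higher, against 11.5% of all genes. The share called higher thus lay near that of all genes. The ratio itself was below 1 for 28 of the 36, against 49.8% of all genes measured. The median log2 read ratio of the members was -0.19, or 0.876-fold, beside 0.00 over all genes measured. The members called lower were Mx2, Ifi27, Parp9, Dtx3l, Igtp, Ifngr1, Ifnar2, Parp14 and Irf2. Ifit3, Rsad2, Ifngr2, Irf3 and Jak1 were called higher. Their gene numbers are 286918 for Mx2, 170512 for Ifi27, 303905 for Parp9, 498089 for Dtx3l, 303163 for Igtp, 116465 for Ifngr1, 309526 for Ifit3, 65190 for Rsad2 and 360697 for Ifngr2. A call depends on depth, and the measured members had a median of 543 reads in both libraries together, beside 922 for all genes measured.

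Size set the ends of the list apart from its middle. The central 95% of all genes measured ran from 0.641-fold to 1.56-fold, and 32 of the 36 members lay inside it. Mx2 was below that range, as was Ifi44l on 59 reads, and Ifit3 and Rsad2 were above it. By the rule of at least 2-fold with an interval excluding 1, Ifit3 and Rsad2 were called, 2 of 36 beside 1.38% of all genes measured. The 24 measured induced members had a median log2 read ratio of -0.26, with 6 (25%) called lower and 2 (8.33%) higher. The 12 signalling members (receptors, kinases, STAT and IRF factors) had one of -0.12, with 3 (25%) called each way. Of all genes measured, 12.1% were called lower and 11.5% higher.

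**Figure D1:**
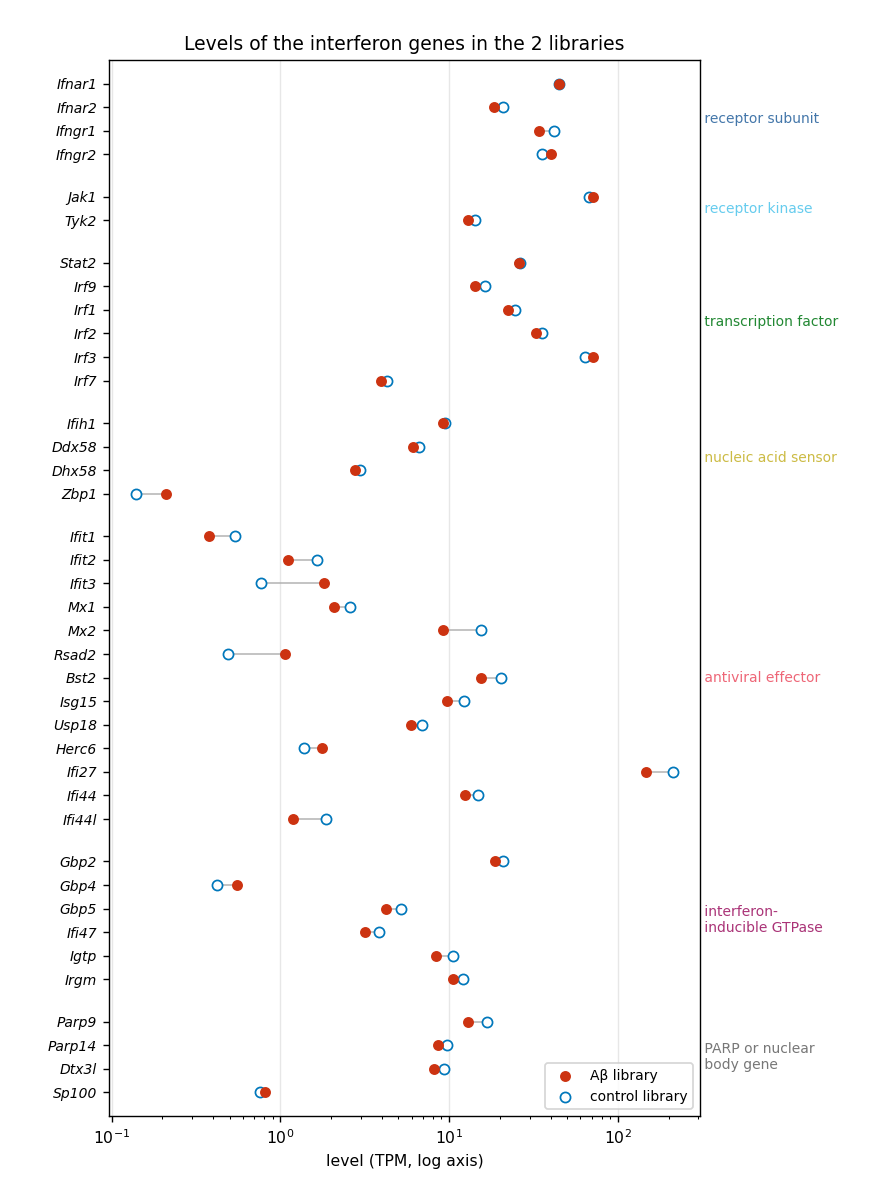
TPM (log axis) of the 39 members with a row, grouped by role, in the Aβ library (filled red) and the control library (open blue), 1 library each. Ifi27 stands highest at 147 TPM under Aβ and 212 TPM under DMSO, the receptor genes lie between 18.3 and 44.5 TPM, and the widest gaps are those of Ifit3, Rsad2 and Mx2.

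Both libraries showed markers of OPCs together with those of other glia. The transcription factor gene Olig1 stood at 1421 TPM in the Aβ library, against 1557 TPM in the control library, and the PDGF receptor gene Pdgfra at 23.2 TPM under Aβ and 24.6 TPM under DMSO. Sox10, another lineage factor, was low at 0.84 TPM under Aβ and 1.22 TPM under DMSO, and Gpr17 had 4 reads under Aβ and 5 under DMSO. Of the 9 OPC markers measured, 4 were called lower and 2 higher. The OPC markers called higher were Cspg4, the gene of the NG2 proteoglycan, and C1ql1. Cspg4 had 540 reads (6.65 TPM) under Aβ and 303 (3.7 TPM) under DMSO (1.78, 1.54 to 2.05). C1ql1 had 80 reads (8.24 TPM) under Aβ and 41 (4.25 TPM) under DMSO (1.95, 1.32 to 2.91). The 7 astrocyte markers summed to 1995 TPM in the Aβ library, against 1974 TPM in the control library. Slc1a3 alone held 1013 TPM under Aβ and 987 TPM under DMSO, and Gfap stood at 328 TPM under Aβ and 368 TPM under DMSO. Of the 7, 3 (42.9%) were called lower, from 0.849 for Aqp4 to 0.907 for Aldh1l1. Another 3 (42.9%) were called higher, from 1.02 for Slc1a3 to 1.17 for Aldoc. All 15 microglia and macrophage markers were detected, summing to 360 TPM under Aβ and 409 TPM under DMSO. Of these, 4 were called lower (C1qa, C1qb, C1qc and Aif1), and the whole list had a median log2 read ratio of -0.21. C1qa, a complement subunit made by microglia, was at 53.4 TPM under Aβ and 80.2 TPM under DMSO, a read ratio of 0.672 (0.589 to 0.765). Other genes of the same cells lay near 1, with Csf1r at 0.941 (0.863 to 1.03), Ptprc at 1.02 (0.862 to 1.22) and Tyrobp at 1.09 (0.868 to 1.38). Which cells the interferon-induced transcripts came from, and the part of the microglial markers in their lower levels, was not tested. Of 4 fibroblast markers measured, 2 (Col1a1 and Col1a2) were called lower, and the list summed to 2.86 TPM under Aβ and 5.99 TPM under DMSO. In bulk RNA, fewer cells of a type and less RNA per cell cannot be told apart.

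The receptor genes were all present, and their subunits did not move together. Ifnar1, the signalling subunit of the type I receptor, had 2007 reads (44.5 TPM) in the Aβ library, against 1996 reads (44.5 TPM) in the control library. Its read ratio was 1.00 (0.942 to 1.07), so these libraries did not differ in Ifnar1 beyond counting error. Ifnar2, the partner with the higher affinity for ligand, had 490 reads (18.3 TPM) under Aβ and 558 reads (20.8 TPM) under DMSO, a ratio of 0.876 (0.774 to 0.991). Ifngr1, the ligand-binding chain for interferon-gamma, had 551 reads (34.1 TPM) under Aβ and 673 reads (41.6 TPM) under DMSO, a ratio of 0.817 (0.728 to 0.915). It was the lowest ratio among the signalling members. Ifngr2, the chain that brings JAK2 to the receptor, went the other way, with 971 reads (40.3 TPM) under Aβ and 854 reads (35.4 TPM) under DMSO, a ratio of 1.13 (1.03 to 1.24). The 2 chains thus exchanged their order by TPM, with Ifngr2 at 1.18 times Ifngr1 in the Aβ library, against 0.850 times in the control library.

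The kinase genes lay on either side of 1. Jak1, which serves both receptors, had 3392 estimated reads (70.8 TPM) under Aβ and 3185 (67.0 TPM) under DMSO, a ratio of 1.06 (1.01 to 1.12). Its reads were not whole numbers, which can occur where estimated counts are shared between gene models. Tyk2, the kinase bound to IFNAR1, had 601 reads (13.0 TPM) under Aβ and 666 reads (14.3 TPM) under DMSO, a ratio of 0.900 (0.805 to 1.01). Jak1 was 5.44 times as abundant as Tyk2 per length in the Aβ library, against 4.68 times in the control library.

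The STAT and IRF factors had ratios between 0.883 and 1.13. Stat2 had 905 reads (26.0 TPM) under Aβ and 933 (26.2 TPM) under DMSO, a ratio of 0.967 (0.882 to 1.06), and Irf9, its partner in the ISRE-binding complex, had 284 reads (14.3 TPM) under Aβ and 314 reads (16.4 TPM) under DMSO, a ratio of 0.902 (0.766 to 1.06). Both intervals included 1. Irf1, an activator that interferon-gamma induces strongly, had 405 reads (22.4 TPM) under Aβ and 448 reads (24.7 TPM) under DMSO, a ratio of 0.902 (0.786 to 1.03). Irf2, which binds the same sites and represses many of them, was called lower, with 593 reads (32.7 TPM) under Aβ and 670 reads (35.3 TPM) under DMSO, a ratio of 0.883 (0.789 to 0.987). Irf3, the constitutive factor that switches on interferon-beta after nucleic acid sensing, was the one called higher, with 984 reads (71.5 TPM) under Aβ and 869 reads (63.9 TPM) under DMSO, a ratio of 1.13 (1.03 to 1.24). In the reference annotation Irf3 overlaps Bcl2l12, which had 199 reads under Aβ and 229 under DMSO, a ratio of 0.867 (0.713 to 1.05). Irf7, the factor that amplifies the type I response and is itself interferon-induced, was low, with 72 reads (3.96 TPM) under Aβ and 76 reads (4.31 TPM) under DMSO, a ratio of 0.945 (0.675 to 1.32).

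**Figure D2:**
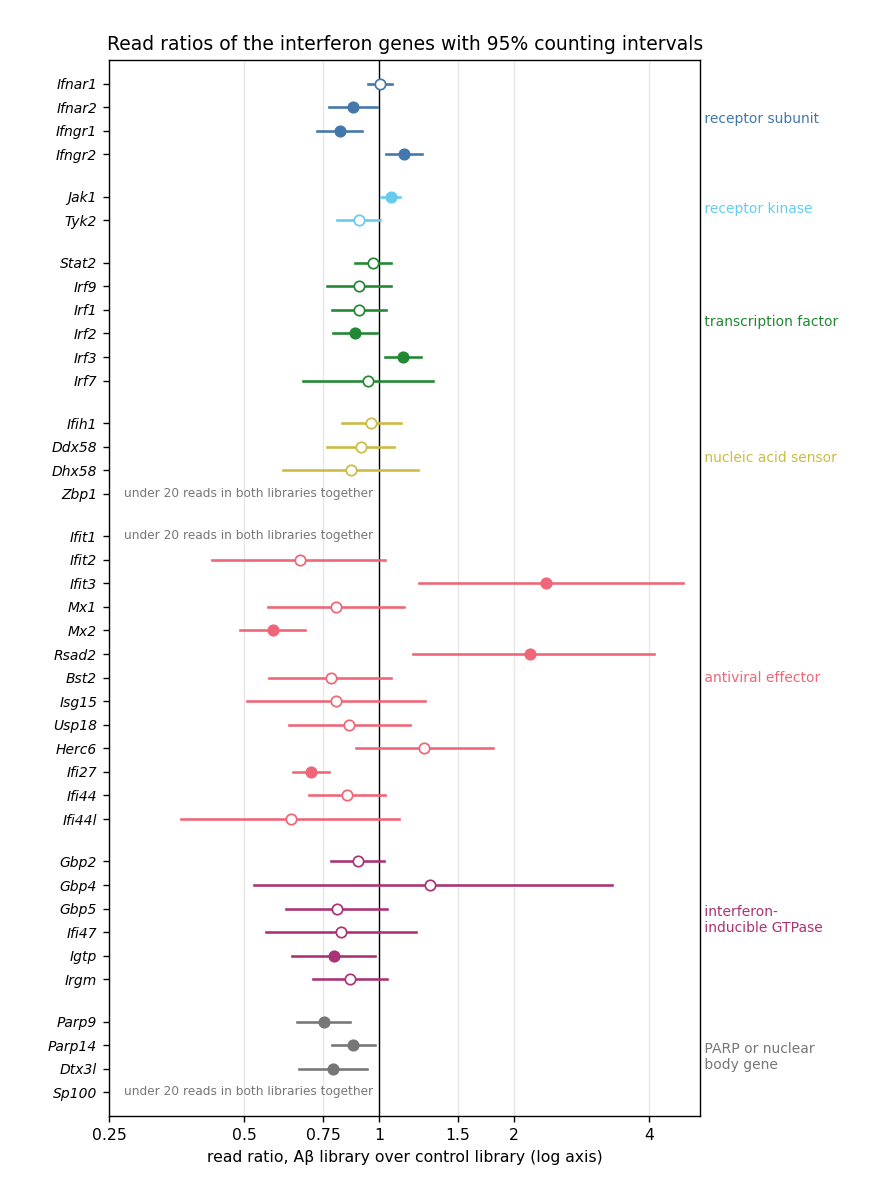
Read ratio (Aβ library over control library, log axis) of each measured member with its exact 95% counting interval, coloured by role. Filled points have an interval that excludes 1, 9 of them below 1 and 5 above, and most open points also lie left of 1.

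Among the sensors of foreign nucleic acid no interval excluded 1. Ifih1 (MDA5), a sensor of long double-stranded RNA, had 346 reads (9.22 TPM) under Aβ and 359 reads (9.51 TPM) under DMSO, a ratio of 0.961 (0.827 to 1.12). Ddx58 (RIG-I), which senses short RNA with a triphosphate end, had 261 reads (6.11 TPM) under Aβ and 286 reads (6.65 TPM) under DMSO, a ratio of 0.910 (0.767 to 1.08). Dhx58, their regulator, had 65 reads under Aβ and 75 under DMSO, a ratio of 0.864 (0.610 to 1.22). Zbp1, a sensor of left-handed nucleic acid that can start cell death, had only 3 reads under Aβ and 2 under DMSO and was not measured.

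The antiviral effectors held both ends of the range. Mx2, a dynamin-like GTPase of the antiviral Mx family, had 224 reads (9.15 TPM) under Aβ and 386 reads (15.4 TPM) under DMSO. Its ratio of 0.579 (0.489 to 0.684) was the lowest of all measured members. Mx1, its relative, had 62 reads under Aβ and 77 under DMSO, a ratio of 0.803 (0.565 to 1.14). Ifi27, a small mitochondrial and nuclear membrane protein, was the most abundant member, with 759 reads (147 TPM) under Aβ and 1074 reads (212 TPM) under DMSO, a ratio of 0.705 (0.641 to 0.774). It held 16.9% of the reads of the 27 induced members in the Aβ library, against 19.5% in the control library. Those 27 genes summed to 4497 reads under Aβ and 5514 under DMSO, a ratio of 0.813 (0.782 to 0.846). Without Ifi27 and Mx2 the sums were 3514 reads under Aβ and 4054 under DMSO, a ratio of 0.865 (0.826 to 0.905), so the lower sum did not rest on these genes alone.

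Ifit3 and Rsad2 stood apart, with more than double the reads in the Aβ library, but on small numbers. Ifit3, which stabilises the RNA-binding IFIT complex, had 33 reads (1.82 TPM) under Aβ and 14 reads (0.77 TPM) under DMSO, a ratio of 2.35 (1.22 to 4.75). Rsad2 (viperin), which makes a chain-terminating nucleotide, had 37 reads (1.07 TPM) under Aβ and 17 reads (0.49 TPM) under DMSO, a ratio of 2.17 (1.19 to 4.11). The other IFIT genes did not share this direction. Ifit2 had 36 reads under Aβ and 54 under DMSO, a ratio of 0.665 (0.424 to 1.03), and Ifit1 had 7 reads under Aβ and 10 under DMSO and was not measured. Summed, the 3 IFIT genes had 76 reads in the Aβ library, against 78 in the control library, a ratio of 0.972 (0.699 to 1.35).

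For the rest of the effectors the interval included 1. Bst2 (tetherin), which holds budding virus at the membrane, had 75 reads (15.5 TPM) under Aβ and 96 reads (20.2 TPM) under DMSO, a ratio of 0.779 (0.568 to 1.07). Isg15, a ubiquitin-like modifier, had 37 reads (9.68 TPM) under Aβ and 46 reads (12.2 TPM) under DMSO, a ratio of 0.802 (0.506 to 1.26), and Usp18, which removes it and blocks the type I receptor, had 80 reads under Aβ and 93 under DMSO, a ratio of 0.858 (0.628 to 1.17). Herc6, an ISG15 ligase in mouse, had 77 reads under Aβ and 61 under DMSO, a ratio of 1.26 (0.888 to 1.79). Ifi44 had 198 reads (12.4 TPM) under Aβ and 233 reads (14.7 TPM) under DMSO, a ratio of 0.848 (0.698 to 1.03), and its neighbour in sequence family, Ifi44l, had 23 reads under Aβ and 36 under DMSO, a ratio of 0.637 (0.361 to 1.11). At these depths the intervals of Isg15, Ifi44l and Mx1 each spanned more than a 2-fold range.

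**Figure D3:**
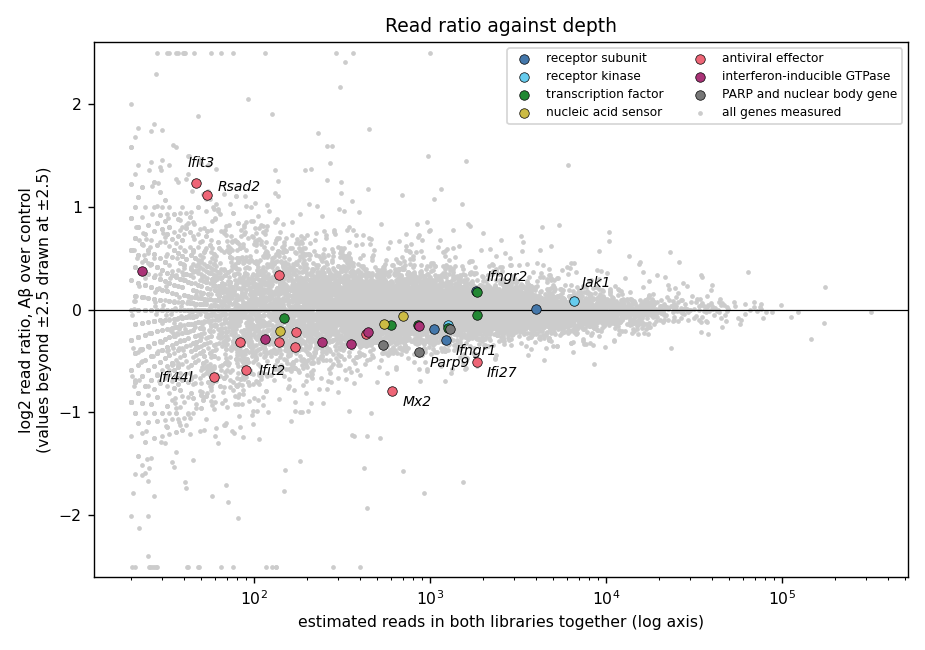
Log2 read ratio (Aβ over control) against the reads of both libraries together (log axis), for all 13593 genes measured (grey) and the 36 measured members (coloured by role). Ifit3 and Rsad2 lie in the wide low-read part of the cloud, whereas Mx2, with 610 reads, and Ifi27, with 1833, lie at its lower edge where it is narrower.

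The interferon-inducible GTPases act against intracellular microbes and are mainly targets of interferon-gamma. Of the 6 measured, 5 had a ratio below 1, beside 49.8% of all genes measured. One of the 6 (16.7%), Igtp, was called lower, near the 12.1% of all genes. Igtp (IRGM3 in mouse) had 158.12 estimated reads (8.37 TPM) under Aβ and 198.65 (10.5 TPM) under DMSO, a ratio of 0.794 (0.639 to 0.981), on reads that were not whole. Irgm had 206 reads (10.5 TPM) under Aβ and 239 reads (12.1 TPM) under DMSO, a ratio of 0.860 (0.710 to 1.04), and Ifi47 had 52 reads under Aβ and 63 under DMSO, a ratio of 0.823 (0.559 to 1.21). Among the guanylate-binding proteins, Gbp2 had 409 reads (18.7 TPM) under Aβ and 455 reads (20.8 TPM) under DMSO, a ratio of 0.897 (0.783 to 1.03), and Gbp5 had 108 reads under Aβ and 134 under DMSO, a ratio of 0.804 (0.618 to 1.04). Gbp4 rested on 13 reads under Aβ and 10 under DMSO, a ratio of 1.30 (0.525 to 3.30). Summed over the 6 genes there were 946.12 reads under Aβ and 1099.65 under DMSO, a ratio of 0.858 (0.786 to 0.936).

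The 3 measured genes of the PARP and nuclear body group were called lower, beside 12.1% of all genes measured, though Parp9 and Dtx3l overlap and their calls may share reads. PARP9 and the ubiquitin ligase DTX3L form a complex that promotes interferon-induced transcription, and PARP14 is an ADP-ribosyltransferase known from macrophage signalling. Parp9 had 372 reads (12.9 TPM) under Aβ and 493 reads (16.7 TPM) under DMSO, a ratio of 0.753 (0.656 to 0.863). Dtx3l had 238 reads (8.18 TPM) under Aβ and 301 reads (9.29 TPM) under DMSO, a ratio of 0.789 (0.663 to 0.938). Its TPM ratio of 0.881 was nearer to 1, a gap between scales of 1.12-fold that was the widest among the measured members. Parp14 had 608 reads (8.58 TPM) under Aβ and 692 reads (9.69 TPM) under DMSO, a ratio of 0.876 (0.785 to 0.979). Parp9 and Dtx3l overlap in the reference annotation, and both had whole-number reads. No source used here says whether counting used strand, so reads of the overlap cannot be assigned to either. Sp100, a nuclear body protein, had 10.09 estimated reads under Aβ and 9.46 under DMSO and was not measured.

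Promoter letters were compared because the induced members share the ISRE and GAS as known response elements. RefSeq promoter windows (250 bases before to 50 after the gene start, build GRCr8) were matched by gene number for 28 members. The core of the ISRE (TTTC, any 2 bases, then TTTC), on either strand, was in the window of 15 of the 28 members (53.6%), against 3.92% of all 33469 windows, and in 14 of the 19 induced members matched. The GAS core TTCNNNGAA, also on either strand, was in 9 of the 28 (32.1%), against 8.87% of all windows. The ISRE core was found in windows of members on both sides of 1. Of the 15 members with it, 12 had a ratio below 1, 4 were called lower and 2 higher, with a median log2 read ratio of -0.22. The 12 measured members whose window lacked the ISRE core had a median of -0.15, with 3 called lower and 2 higher. The 9 members with the GAS core, all measured, had a ratio below 1, from 0.637 to 0.902. Of them 3 were called lower and 0 higher, with a median log2 read ratio of -0.22. Among all 36 measured members, 28 had a ratio below 1. Of all genes measured, 49.8% had a ratio below 1, 12.1% were called lower and 11.5% higher. Whether either core goes with a lower ratio was not tested. A match is a description of letters and no evidence of binding.

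The stretches below are printed, 5′ to 3′ on the strand of the gene, because Ifit3 and Rsad2 were the members called at least 2-fold higher, Ifi27 was called lower on many reads, and the last 4 hold both cores close together. Capitals mark the GAS core and the ISRE core, which reads as above or, on the other strand, as GAAA, any 2 bases, then GAAA. Positions are counted from the gene start, with the base before it as -1.
Ifit3 (chr1:241527257-241527316, plus strand, -69 to -10): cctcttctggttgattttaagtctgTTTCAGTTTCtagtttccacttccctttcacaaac
Rsad2 (chr6:48788233-48788292, minus strand, -172 to -113): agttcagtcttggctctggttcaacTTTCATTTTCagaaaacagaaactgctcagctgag
Ifi27 (chr6:128355203-128355262, plus strand, -109 to -50): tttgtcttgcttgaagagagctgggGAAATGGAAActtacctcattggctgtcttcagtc
Bst2 (chr16:18255058-18255117, minus strand, -150 to -91): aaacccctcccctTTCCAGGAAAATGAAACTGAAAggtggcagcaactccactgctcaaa
Igtp (chr10:42874919-42874978, plus strand, -128 to -69): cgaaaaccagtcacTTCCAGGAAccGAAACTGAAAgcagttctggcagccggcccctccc
Irgm (chr10:33742579-33742638, minus strand, -60 to -1): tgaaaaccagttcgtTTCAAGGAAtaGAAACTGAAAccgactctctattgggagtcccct
Parp14 (chr11:78408033-78408092, plus strand, -101 to -42): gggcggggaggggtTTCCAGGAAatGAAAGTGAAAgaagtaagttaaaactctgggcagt

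In Igtp, Irgm and Parp14 the GAS core began 11 bases before the ISRE core, with 2 bases between them. This spacing, looked for after it was seen in these members, occurred in 4 of the 33469 windows, and the other one was that of Irgm2, a further interferon-inducible GTPase gene. In Bst2 the GAS core overlapped one ISRE core and the ISRE cores overlapped each other. The read ratios of the 3 members with this spacing were 0.794 for Igtp, 0.860 for Irgm and 0.876 for Parp14, and Irgm2 was at 1.02 (0.896 to 1.17) on reads that were not whole.

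Other genes of the pathway were taken from lists outside the 40 members. Of 12 interferon ligand symbols, Ifne and Ifna5 had a row, each with 1 read over both libraries, that of Ifne in the Aβ library and that of Ifna5 in the control library. Upstream sensing (Toll-like receptors, their adaptors and the kinases that act on IRF3) had 17 measured genes. Of these, 1 (5.88%) was called lower and 0 higher, beside 12.1% and 11.5% of all genes measured. The median log2 read ratio of the list was 0.01. The gene called was Tlr4, the lipopolysaccharide receptor, on 30 reads under Aβ and 50 under DMSO, a ratio of 0.598 (0.367 to 0.960). The adaptor Mavs, through which RIG-I and MDA5 signal, had 434 reads in each library.

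Further signalling (other STAT, JAK and IRF genes, SOCS inhibitors, phosphatases and PIAS proteins) had 26 measured genes, with a median log2 read ratio of 0.03. Of these, 1 (3.85%) was called lower and 3 (11.5%) higher, beside 12.1% and 11.5% of all genes measured. The share called higher was thus that of all genes. Stat6, the factor of interleukin-4 signalling, was called higher at 14.3 TPM under Aβ and 10.5 TPM under DMSO, a ratio of 1.35 (1.15 to 1.60). The IRF2-binding corepressor genes Irf2bp1 (1.12, 1.01 to 1.24) and Irf2bp2 (1.10, 1.01 to 1.19) were called higher as well. Stat3, the factor of interleukin-6 signalling, was called lower at 0.961 (0.930 to 0.993).

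Of 57 measured interferon-induced genes outside the members, 8 (14.0%) were called lower and 1 (1.75%) higher, beside 12.1% and 11.5% of all genes, and the median log2 read ratio was -0.05. The share called lower thus lay near that of all genes measured. Trim25, the ubiquitin ligase of RIG-I signalling, was at 13.1 TPM under Aβ and 16.8 TPM under DMSO, a ratio of 0.780 (0.667 to 0.911). Ifi27l2b, a relative of Ifi27, was at 86.8 TPM under Aβ and 128.9 TPM under DMSO, a ratio of 0.718 (0.571 to 0.899). Pml, which builds nuclear bodies with SP100, was at 0.854 (0.775 to 0.941), and the RNA helicase-like gene Znfx1 at 0.879 (0.796 to 0.971). Samd9l (0.806, 0.718 to 0.905), Tap2 (0.818, 0.684 to 0.978) and Slfn3 (0.574, 0.330 to 0.963) were also called lower, on reads that were not whole. Slfn13, named after its values were seen, completed these at 0.909 (0.857 to 0.965). Ifitm2, which blocks viral entry, was the one called higher, with 167 reads under Aβ and 131 under DMSO, a ratio of 1.27 (1.01 to 1.61).

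**Figure D4:**
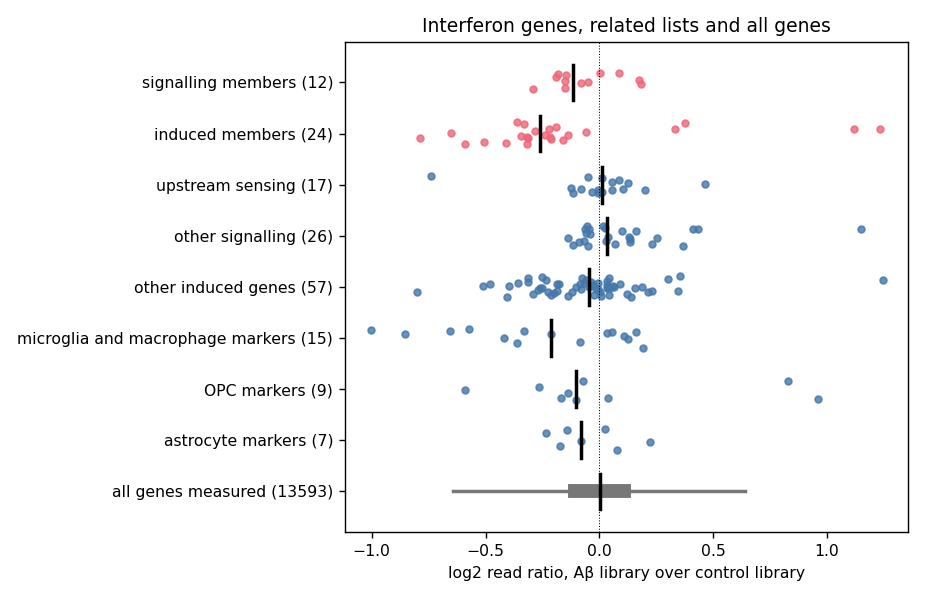
Log2 read ratio (Aβ over control) of each measured gene in the signalling and induced members (red), in related lists and in marker lists (blue), with the number measured in brackets and the median as a black bar; the lowest row gives the median, central 50% (thick) and central 95% (thin) of all 13593 genes. The induced members have a median of -0.26 and the microglia and macrophage markers one of -0.21, whereas upstream sensing and other signalling genes lie at 0.01 and 0.03.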

How the data were processed

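RNA was measured in 1 Aβ and 1 control library, grouped by the treatment label. The submitters' processing notes name Bowtie2 and the build Rnor_6.0, and no source used here gives the version, counting tool or annotation. The authors deposited estimated counts of reads per gene, used rounded to whole numbers for intervals only, and TPM. The authors' FPKM was not used, nor was the deposited normalized read count, which repeats the estimated count rounded up and was treated as a score. The authors' enrichment table gives, per the file headers, a fold enrichment ratio, p-value and gene number per ontology term.

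Reads per library total were compared with Clopper-Pearson intervals of the conditional binomial (scipy 1.17.1, Python 3.11.15). A library at 0 reads was set to 3 reads for medians of log2 ratios. No test was possible with 1 library per group. Since reads had no molecular identifiers, intervals and floors cover counting error only. The floor for a count of 0 is 3 reads, which is 0.191 CPM in the Aβ library and 0.192 CPM in the other. The interval step was checked on simulated data. Promoters and overlapping gene models came from RefSeq (GRCr8), where all 39 members with a row were found by gene number; coordinates in Rnor_6.0 were not used. Values are given for every member called, every signalling member and the 5 most abundant induced members, and in related lists for up to 8 called genes with 50 or more reads in all. The members and lists were chosen with earlier results of these data known. Some genes of these lists are not reported here.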

Additional observations from a re-analysis of the deposited data

How the results depend on the processing

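No paired analysis was possible because each group had 1 library. The median log2 read ratio of the members stayed below 0 under all 7 alternatives, between -0.26 (induced members only, an alternative chosen after seeing the data) and -0.16 (TPM with a pseudocount of 1). With 99% intervals the members called lower numbered 5 in place of 9, since Ifnar2, Irf2, Igtp and Parp14 then included 1, as did Jak1 among those called higher. With 100 or more reads required, those called higher numbered 3 in place of 5, since Ifit3 and Rsad2 have fewer, and among induced members only they numbered 2. On the TPM scale with a pseudocount of 1, 0 members were 2-fold apart in place of 2, because the pseudocount shrinks Ifit3 and Rsad2, at under 2 TPM. Median-ratio scaling shifted all ratios by 0.00 (log2). For all 36 measured members the ratio under that scaling, and the TPM ratio, stayed within the counting interval. Among measured members, the counting interval was widest for Gbp4, then Ifit3, Rsad2 and Ifi44l. Whether any difference would recur in another culture was not tested.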

Other observations

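The authors' deposited table of ontology terms enriched among 391 genes labelled as higher with Aβ holds 282 terms, and 0 of the 40 interferon members are named in any of them. The terms name 246 distinct genes. Whether a member is among the rest of the 391 cannot be seen there. One term names interferon, the positive regulation of type II interferon production. In the authors' deposited table it holds 8 genes at a fold enrichment of 4.24, among them Tnf, Il1b, Cd14 and Ripk2, genes of cytokine and innate signalling. A term on positive regulation of receptor signalling via STAT holds 6 genes at a fold enrichment of 5.24, among them Tnf, Lif and Il6.

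Of the 39 members with a row, 11 overlap another gene model in the reference annotation. Raver2, which overlaps Jak1, had a read ratio of 1.11 (0.990 to 1.26), beside 1.06 for Jak1, and both had reads that were not whole.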
